A study of Mus musculus with 23 samples.

Results

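Cholangiocytes are the epithelial cells that line the bile ducts, and a few genes mark them and the progenitor-like cells that appear beside the ducts of an injured liver. Here 7 such marker genes were followed in mouse liver: Epcam, Spp1, Sox9, Cd24a, Prom1, Cftr and Muc1. They were found as the non-control array probes that carry one of these names, which gave 13 of 56605 probes and 7 of 37074 gene names. A probe was tested if over 50% of the arrays in some group read it well above background, which left 8 of the 13 probes, for 6 of the 7 genes, among 32087 probes for 21056 genes in all.

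Each of 23 male mice gave 1 liver RNA sample and 1 Agilent 1-colour array. The wild-type (WT) mice were C57BL/6J animals bought at 6 weeks of age. The Pxr-/- mice lack the pregnane X receptor (PXR, gene Nr1i2), were backcrossed to C57Bl/6J and came from a colony bred in house for 10 years, so genotype and colony cannot be told apart. Their age was not given in the sources used here. After 2 weeks of acclimatization, mice received corn oil by intraperitoneal injection each day for 4 days, alone (CONT) or with 100 mg/kg of pregnenolone 16α-carbonitrile (PCN), a ligand of mouse PXR. The labels give them as fed when killed, 6 h after their final dose. There were 6 WT arrays for CONT and 5 for PCN, and 6 Pxr-/- arrays for each treatment, spread over 2 array washing batches. The question was how the response of the liver to PCN depends on PXR, and how the genotypes differ.

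As background, the liver is mostly made of hepatocytes, and duct cells are a small minority of it. The transcription factor SOX9 specifies duct cells and also appears in hepatocytes that take on duct features after injury. Osteopontin (Spp1) is a secreted phosphoprotein of duct cells and macrophages that binds integrins and CD44. EPCAM is an adhesion protein of the epithelial surface, CD24 a small anchored mucin-like protein, prominin-1 (Prom1, CD133) a protein of membrane protrusions, CFTR the chloride channel that drives bile fluid secretion, and MUC1 an apical mucin. In whole-liver RNA, more cells of a type cannot be told apart from more RNA per cell.

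The sequences printed here show what lies before the gene that stood out in a single array (Epcam) and before the gene with the widest spread among the clearly detected markers (Spp1). They are the 250 bases before a RefSeq start site in build GRCm38.p6, on the plus strand, with any AGTTCA or AGGTCA (or the reverse complements TGAACT and TGACCT) in capitals. These 6-base half-sites are of the kind that nuclear receptors such as PXR recognise.
Epcam, chr17:87635729-87635978: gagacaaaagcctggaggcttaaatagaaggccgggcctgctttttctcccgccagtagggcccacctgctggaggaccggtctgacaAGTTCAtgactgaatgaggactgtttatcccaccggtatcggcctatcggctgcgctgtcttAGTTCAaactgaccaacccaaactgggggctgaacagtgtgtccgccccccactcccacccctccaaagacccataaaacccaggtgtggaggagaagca
Spp1, chr5:104434861-104435110: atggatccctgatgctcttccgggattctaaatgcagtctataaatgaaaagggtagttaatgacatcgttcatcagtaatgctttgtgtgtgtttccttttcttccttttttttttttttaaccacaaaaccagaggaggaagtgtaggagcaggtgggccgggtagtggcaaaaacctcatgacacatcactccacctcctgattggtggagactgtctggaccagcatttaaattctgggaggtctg
The Epcam window held AGTTCA at 2 places and AGGTCA at 0. The windows of Spp1, Prom1, Muc1 and Cftr, with a second start site each for Spp1 and Prom1, held 0 of either. Over all 32851 windows, 11.8% held AGTTCA and 14% held AGGTCA on either strand. These matches describe the letters and are no evidence of binding.

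Of the 7 genes, Spp1, Sox9 and Cd24a were well above background on all 23 arrays. Epcam and Muc1 reached that level on 10 arrays each and Prom1 on 6. Epcam passed the detection filter through WT PCN (3 of 5 arrays), and Prom1 and Muc1 through Pxr-/- PCN (4 and 5 of 6 arrays). Cftr was not tested: its brightest probe was well above background on 8 arrays, and at most 3 arrays of a group. In build mm9, as the array files give it, the brightest probes lie at chr5:104869788-104869847 (Spp1), chr10:43303932-43303991 (Cd24a), chr17:88048972-88049800 (Epcam), chr5:44491120-44491275 (Prom1), chr3:89036007-89036974 (Muc1) and chr6:18272654-18272713 (Cftr), and no mm9 annotation was used here to place them in exons. Epcam, Prom1, Cftr and Muc1 were therefore read near the detection limit, and small differences in them were not resolved. The duct genes Krt19 and Krt7, which were not among the 7, were well above background on all 23 arrays.

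**Figure D1:**
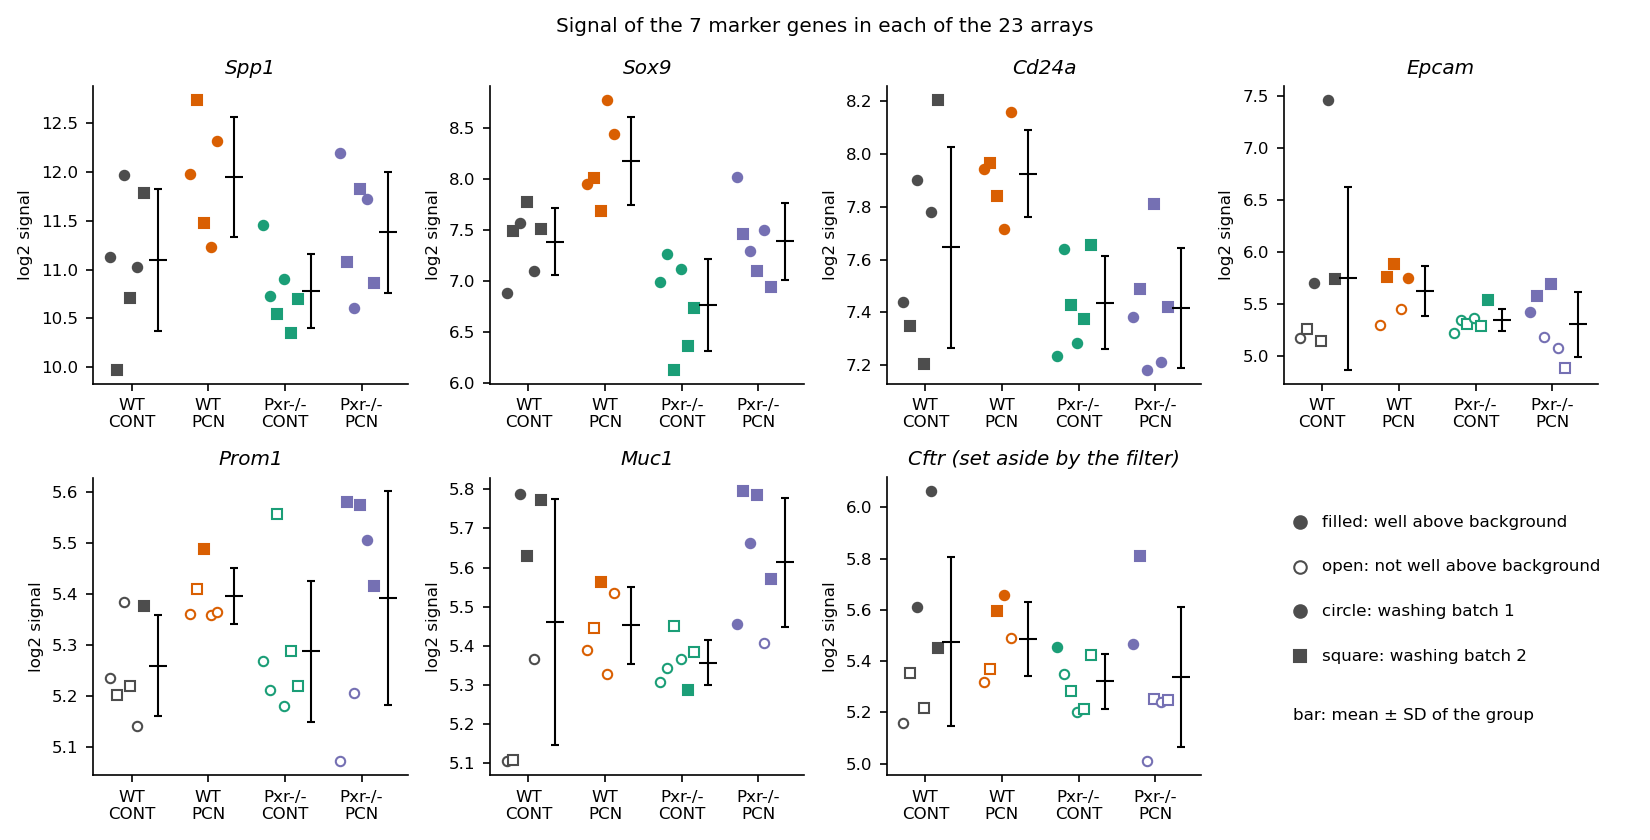
Log2 signal (y axis) of the brightest probe of each gene in every array, by group (x axis), with the group mean ± SD beside the points; filled points are well above background, and circles and squares are washing batches 1 and 2. WT PCN arrays sit high for Sox9, and 1 WT CONT array has an Epcam value of 7.47 while the other 22 arrays stay at or below 5.88.

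That WT CONT array, replicate 5, stood apart before any comparison. Its Epcam signal was 7.47 on the log2 scale, and those of the other 5 WT CONT arrays were 5.15, 5.17, 5.26, 5.70 and 5.75. Of 26 other cholangiocyte genes on the array, 7 were highest in it of all 23 arrays: Krt19 (9.74), the tight junction gene Cldn7 (9.93), the tetraspanin Tspan8 (7.61), the protease gene St14, the epithelial transcription factors Ehf and Elf3, and Dcdc2a. Cldn7 and Tspan8 exceeded every other array by more than 1 log2 unit, the next array being at 7.69 and 6.45.

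Gut epithelium genes were high in the same array. Of 11 genes in a list of gut and gallbladder epithelium, 8 were highest in WT CONT replicate 5 and 6 of those exceeded every other array by more than 1. Krt20, a keratin of the intestinal lining, was 10.57 against at most 5.01 elsewhere. Vil1, villin of the brush border, was 9.73 against at most 6.33. The goblet cell gene Agr2 was 8.40 against at most 5.05, and the intestinal transcription factor genes Cdx1 and Cdx2 were 7.77 and 7.01 against at most 5.28 and 5.34. The filter set these 5 genes aside: Vil1 was well above background on 3 arrays and the others on 1. Of the 7 markers 2 were highest in this array, Epcam and Cftr (6.06 against at most 5.81 elsewhere). Spp1 (11.03), Sox9 (7.09) and Cd24a (7.78) lay inside the range of the others. Among pancreas genes, 2 of 11 were highest there. Per the labels, small intestine and colon of the mice were collected as well, and a part of such tissue in this array was not tested. The Epcam results are given with and without it.

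**Figure D2:**
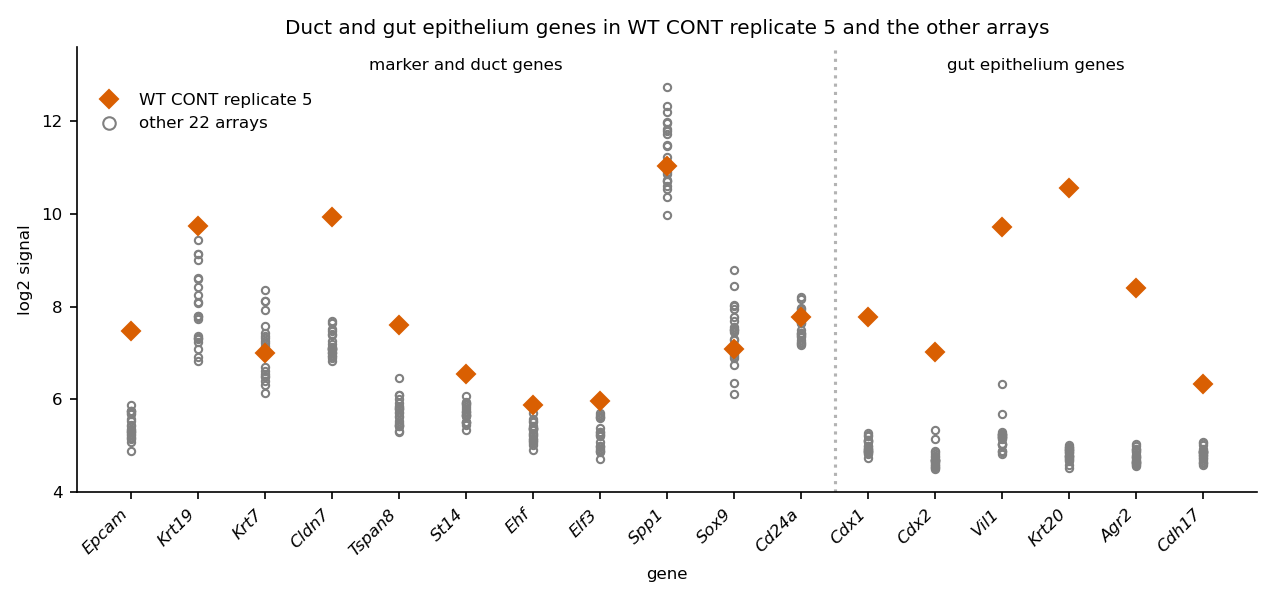
Log2 signal (y axis) of marker, duct and gut epithelium genes (x axis) in WT CONT replicate 5 (diamonds) and the other 22 arrays (circles). Epcam, Cldn7, Tspan8 and the 6 gut genes lie clear of every other array in replicate 5, whereas Spp1, Sox9, Cd24a and Krt7 lie within the range of the rest.

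A second array, WT PCN replicate 4, also differed from the others: 54 tested genes exceeded every other array there by more than 1 log2 unit, as did 45 in WT CONT replicate 5 and at most 15 in any other array. Its Sox9 signal was the highest of the 23, and so were those of 5 of 13 stellate and portal fibroblast genes (Col1a1, Col1a2 and Col3a1 among them), 4 of 26 other cholangiocyte genes and 4 of 18 Notch and TGFβ genes. As a check on treatment and genotype, Cyp3a11, the classical PXR target, was higher by 3.55 (SE 0.23, adjusted p = 4.12e-10) on the log2 scale in WT PCN than in WT CONT. In Pxr-/- mice the difference was 0.31 (adjusted p = 0.431). The Nr1i2 probe did not separate the genotypes (-0.03 in CONT mice, SE 0.28), and whether it lies in the deleted part was not given in the sources used here.

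Sox9 rose with PCN in WT mice, and no other marker passed both thresholds in that comparison (a Benjamini-Hochberg adjusted p of at most 0.05 over all probes in limma, and a fold above 1.5). The WT CONT arrays read 6.88, 7.09, 7.49, 7.51, 7.57 and 7.77 on the log2 scale, and the WT PCN arrays 7.69, 7.96, 8.02, 8.45 and 8.78. The groups overlapped, with 4 of 5 WT PCN arrays above every WT CONT array. The fitted difference was 0.76 (SE 0.21, 95% interval 0.33 to 1.19), a 1.69-fold higher signal, with an adjusted p of 0.0109. Thus 1 of 6 tested markers was called, where 6.18% of all genes tested were called in either direction and 3.79% higher. Of 13 tested genes of stellate cells and portal fibroblasts, 4 were also called higher in WT PCN, among them the collagen genes Col1a1 (3.17, SE 0.42), Col1a2 (2.18) and Col3a1 (2.18). The list as a whole moved little: 9 of its 13 differences were positive, with a median of 0.17. The summed signal of that list ran from 24870.3 to 39849.4 in WT CONT and from 34840.5 to 51987.5 in WT PCN. On this linear scale the brightest gene, Dcn, weighs most. The part of these genes in the Sox9 difference was not tested.

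The Sox9 call had the same direction in both washing batches but not the same size. In batch 1 the WT PCN arrays (7.96, 8.45 and 8.78) all lay above the WT CONT arrays (6.88, 7.09 and 7.57), and the difference was 1.21 (limma adjusted p = 0.00845). In batch 2 the WT PCN arrays (7.69 and 8.02) overlapped the WT CONT arrays (7.49, 7.51 and 7.77), and the difference was 0.26 (adjusted p = 0.473). Leaving out any single array kept the call, with differences from 0.61 to 0.87. Without WT PCN replicate 4 the difference was 0.64 (adjusted p = 0.0376), and without WT CONT replicate 5 it was 0.66 (adjusted p = 0.0329).

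The second Sox9 probe gave a smaller difference. The higher-signal probe, A_55_P2798454, lies at chr11:112647560-112647619 and the other, A_55_P2745144, at chr11:112646642-112646701 (build mm9). With the second probe, WT PCN arrays read 6.48 to 6.60 and WT CONT arrays 6.02 to 6.45, so the groups did not overlap. Its fitted difference was 0.30 (SE 0.10, adjusted p = 0.0289), a 1.23-fold change that stayed under the fold threshold. For scale, 5.85% of all genes tested had a WT PCN group entirely above WT CONT.

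**Figure D3:**
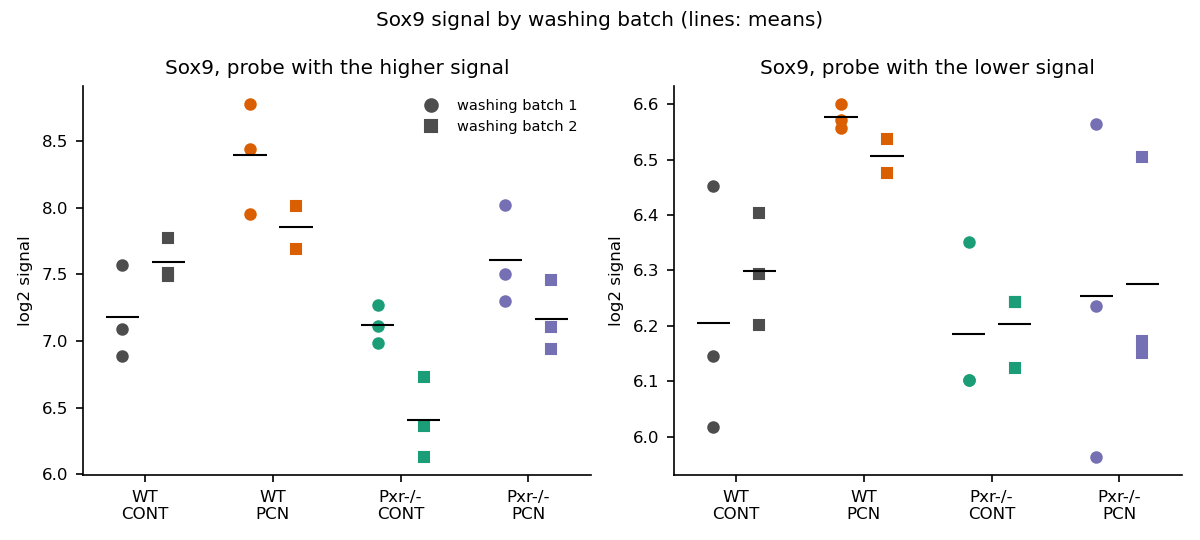
Log2 signal (y axis) of the 2 Sox9 probes by group (x axis) and washing batch, with 1 point per array and a line at each mean. In batch 1 the higher-signal probe separates WT PCN from WT CONT by 1.21, and in batch 2 these groups overlap.

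In Pxr-/- mice the higher-signal Sox9 probe gave a difference of similar size that did not pass the threshold, and the second probe a smaller one. Pxr-/- CONT arrays read 6.13, 6.36, 6.73, 6.99, 7.12 and 7.27, and Pxr-/- PCN arrays 6.94, 7.10, 7.30, 7.46, 7.51 and 8.03. The fitted difference was 0.62 (SE 0.20, 95% interval 0.21 to 1.03) with an adjusted p of 0.0607 in limma. It was 0.49 in batch 1 and 0.76 in batch 2, and within each batch the 3 PCN arrays lay above the 3 CONT arrays. With the second Sox9 probe the difference was 0.07 (SE 0.09, adjusted p = 0.713), beside 0.30 in WT mice. Of the 13 stellate and portal fibroblast genes 3 were called higher here (Col1a1 by 1.96), where 1.42% of all genes were. In that list 11 differences were positive, with a median of 0.12. Its summed signal ran from 22280.7 to 35012.7 without PCN and from 23038.8 to 49382 with it. Of the 6 tested markers 0 were called, where 2.28% of all genes were. The call was gained when only these 2 groups were fitted (adjusted p = 0.0292), when replicate number entered as a block (0.0412) and on leaving out any of 4 single arrays: WT CONT replicate 1 or 4, Pxr-/- CONT replicate 2 or Pxr-/- PCN replicate 6 (0.0427 to 0.0492).

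The response of Sox9 to PCN was not shown to differ between the genotypes. The difference of the responses, WT minus Pxr-/-, was 0.14 (SE 0.29, 95% interval -0.46 to 0.73, limma adjusted p = 0.883). It was 0.73 in batch 1 and -0.50 in batch 2, with adjusted p of 0.416 and 0.428. With the second Sox9 probe it was 0.23 (SE 0.13, adjusted p = 0.461). None of the 6 tested markers was called in this test, 0 of 6 against 1.05% of all genes.

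Between genotypes, Sox9 was lower in Pxr-/- PCN than in WT PCN mice. The difference was -0.76 (SE 0.21, adjusted p = 0.0279), and 5 of 6 Pxr-/- PCN arrays lay below every WT PCN array. It was the 1 marker of 6 called, where 2.09% of all genes were called in either direction and 1.36% lower. The differences within batches were -0.79 and -0.69, with adjusted p of 0.133 and 0.192. The call did not hold without WT PCN replicate 2, 4 or 5 or without Pxr-/- PCN replicate 3 or 6, where the difference ran from -0.75 to -0.64 and the adjusted p from 0.0598 to 0.0884. With the second Sox9 probe it was -0.29 (adjusted p = 0.071).

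In CONT mice the same comparison gave Sox9 a difference of -0.62 (SE 0.20) with an adjusted p of 0.214. It rested on batch 2, where it was -1.19 (adjusted p = 0.0317) against -0.06 in batch 1. With the second Sox9 probe the difference was -0.06 (SE 0.09, adjusted p = 0.849). Of 6 tested markers 0 were called, against 0.309% of all genes.

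**Figure D4:**
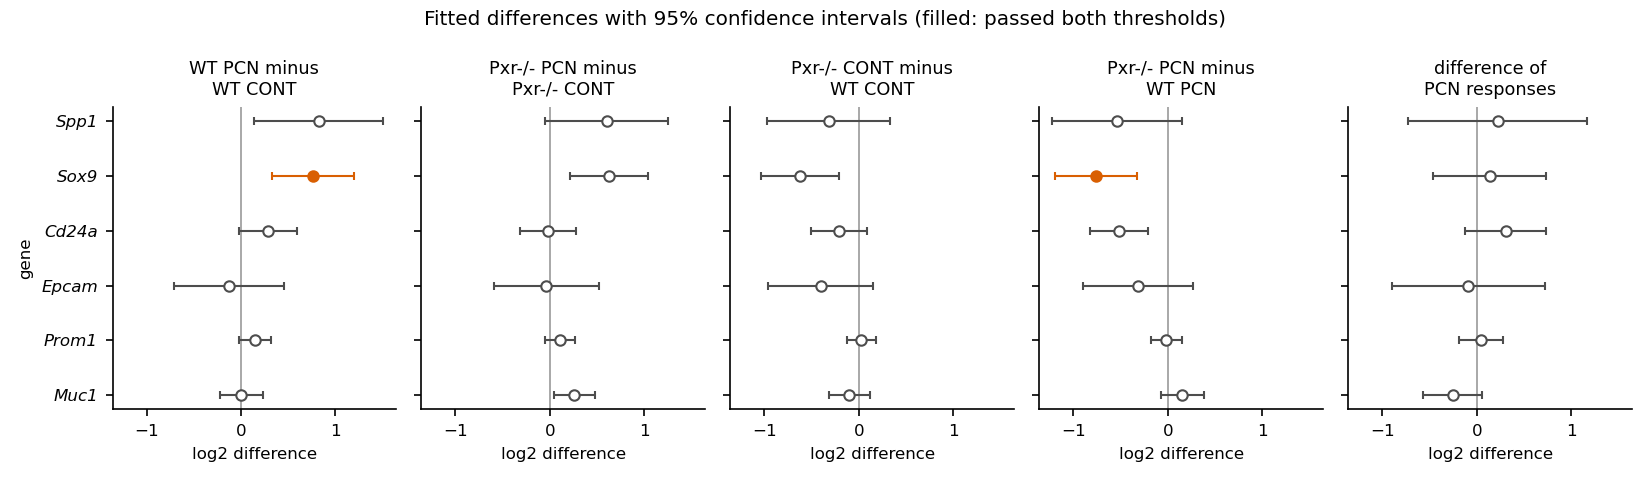
Fitted log2 differences (x axis) with 95% confidence intervals for the 6 tested marker genes (y axis) in 5 comparisons; filled points passed both thresholds. Sox9 is filled for WT PCN minus WT CONT and for Pxr-/- PCN minus WT PCN, and no other gene is filled. Prom1 and Muc1 passed the filter through Pxr-/- PCN alone and Epcam through WT PCN alone, which limits their points in comparisons with those groups.

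Spp1 read higher after PCN in both genotypes, but the spread between mice was wide and neither difference passed. WT CONT arrays read 9.97, 10.71, 11.03, 11.13, 11.79 and 11.97, and WT PCN arrays 11.23, 11.48, 11.98, 12.32 and 12.75. The groups overlapped, and the difference was 0.82 (SE 0.33, adjusted p = 0.0758), or 1.77-fold. Pxr-/- CONT arrays ran from 10.35 to 11.45 and Pxr-/- PCN arrays from 10.61 to 12.20, a difference of 0.60 (SE 0.31, adjusted p = 0.275). In WT mice the threshold was passed without WT PCN replicate 4 (1.03, adjusted p = 0.033), WT CONT replicate 3 (0.98, 0.0412) or WT CONT replicate 6 (0.99, 0.0341), and with the deposited values (0.99, 0.0394). In those deposited values the median of all probes also shifted, by 0.11. Without WT PCN replicate 2 the difference was 0.55 (adjusted p = 0.268), the lowest of the leave-one-out fits. The difference was 0.47 in batch 1 and 1.29 in batch 2. Between genotypes Spp1 differed by -0.32 (SE 0.31) in CONT and -0.54 (SE 0.33) in PCN mice, both not called.

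Cd24a was read by a pair of probes and differed most between the treated genotypes. On the brighter one, A_55_P2866057, WT PCN arrays read 7.71, 7.84, 7.94, 7.97 and 8.16, and Pxr-/- PCN arrays 7.18, 7.21, 7.38, 7.42, 7.49 and 7.81. A single Pxr-/- PCN array overlapped the WT PCN range. The difference was -0.52 (SE 0.15, adjusted p = 0.0361), a 0.70-fold level that did not pass the fold threshold. It passed both thresholds with the deposited values (-0.72, adjusted p = 0.00415), with processed signals (-0.62, 0.0424) and without Pxr-/- PCN replicate 4 (-0.59, 0.019). In the deposited values the median of all probes also shifted, by -0.18, and this shift was not taken off. The other probe gave -0.43 (adjusted p = 0.105). On the brighter probe PCN gave 0.29 in WT mice (SE 0.15, adjusted p = 0.18) and -0.02 in Pxr-/- mice (SE 0.14). The difference of these responses was 0.31 (SE 0.21, adjusted p = 0.535). The other probe gave 0.24 (SE 0.16) and 0.11 (SE 0.15), with a difference of responses of 0.13 (SE 0.22, adjusted p = 0.843).

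Epcam showed no called difference, and its direction in WT mice depended on WT CONT replicate 5. Epcam passed the filter through WT PCN alone, which limits its comparisons with that group. WT PCN arrays read 5.30, 5.46, 5.75, 5.76 and 5.88, inside the WT CONT range set by WT CONT replicate 5. With it the difference was -0.13 (SE 0.28, adjusted p = 0.795), and without it 0.25 (SE 0.15, adjusted p = 0.263). Between CONT genotypes the difference was -0.40 with it and -0.05 without it, neither called. In Pxr-/- mice the difference was -0.04 (SE 0.27).

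Prom1 and Muc1 gave small differences near the detection limit. Prom1 ran from 5.07 to 5.58 over all 23 arrays and was well above background on 0 of 6 Pxr-/- CONT arrays, so its level there is only a bound. Because it passed the filter through Pxr-/- PCN alone, no fold is read from that comparison (measured means of 5.39 with PCN and 5.29 without, adjusted p = 0.461). In WT mice the difference was 0.15 (SE 0.08, adjusted p = 0.196). Muc1 ran from 5.11 to 5.80. Muc1 too passed the filter through Pxr-/- PCN alone, so no fold is read from Pxr-/- PCN against Pxr-/- CONT. Its Pxr-/- PCN arrays read 5.41 to 5.80 and its Pxr-/- CONT arrays 5.29 to 5.45, with overlapping groups (limma adjusted p = 0.15). In WT mice the Muc1 difference was 0.00 (SE 0.11).

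A pair of these genes tended to vary together among mice of the same group. After each array's value was set against the mean of its group and washing batch, Spp1 and Cd24a correlated over the 23 arrays with a Pearson r of 0.64 (two-sided permutation p = 0.0029, adjusted over 15 pairs 0.0435, 100000 permutations within groups). Spearman's rho was 0.58 (permutation p = 0.00857, adjusted 0.068), so the relation passed by r and not by rho. The arrays were shuffled within groups but across washing batches, although batch means had been removed. These permutation p-values are therefore too small, and the pass by r is not firm. Without the 2 arrays farthest from the Spp1 median r was 0.63, and without WT CONT replicate 5 it was 0.66. Within the batches r was 0.43 over 12 arrays and 0.79 over 11. Epcam and Cd24a had the highest rho (0.61, permutation p = 0.00907, adjusted 0.068), with an r of 0.45 that became 0.58 without WT CONT replicate 5. No other pair reached an adjusted permutation p of 0.05 by r or rho, Sox9 with Spp1 among them (r = 0.27, adjusted p = 0.529).

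**Figure D5:**
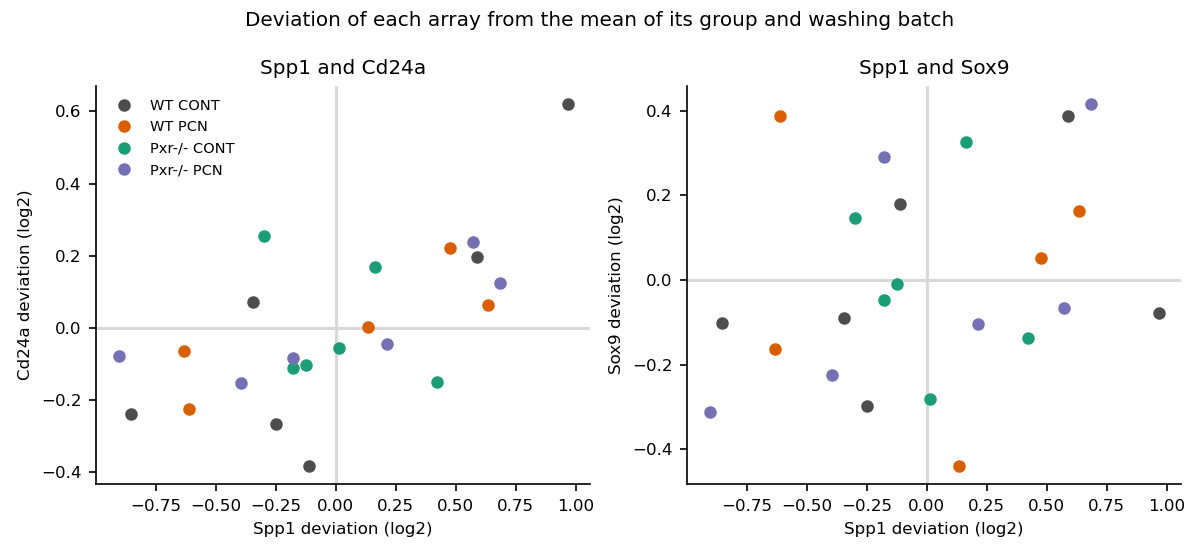
Deviation of each array from the mean of its group and washing batch (log2), for Cd24a against Spp1 and for Sox9 against Spp1 (y against x), with 1 point per array coloured by group. The Cd24a points follow Spp1 (r = 0.64) and the Sox9 points are scattered (r = 0.27).

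Other genes of the duct epithelium gave few calls, not clearly apart from the share over all genes. Of 25 cholangiocyte genes tested, 1 was higher in WT PCN than in WT CONT, the RNA-binding gene Bicc1 (0.60, SE 0.15, adjusted p = 0.0071), and 0 were lower. Over all genes 3.79% were called higher and 2.39% lower. The median difference of the list was -0.03, beside -0.02 over all genes. In Pxr-/- mice 1 of 25 was higher, the receptor gene Gprc5a (0.80, SE 0.24, adjusted p = 0.0483), with a list median of 0.09 beside -0.01. There 1.42% of all genes were called higher. Gprc5a stayed called in 6 of 23 leave-one-out fits (0.66 to 0.97, adjusted p up to 0.117), and the count was 0 without WT CONT replicate 5, among others. Bicc1 stayed called in 19 of 23, and lost the call through the fold threshold without WT CONT replicate 1, 4 or 5 or WT PCN replicate 5, with a lowest difference of 0.51 without WT CONT replicate 5, where the count of 1 came from another gene. Without WT PCN replicate 4 the count in WT mice was 2. Between genotypes 0 of 25 were called in CONT or PCN mice, where 0.309% and 2.09% of all genes were. The list medians were -0.19 and -0.14.

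The duct keratins read differently in the washing batches. Krt19 gave 0.41 (SE 0.44, adjusted p = 0.546) and Krt7 0.73 (SE 0.31, adjusted p = 0.0941) for PCN in WT mice. In batch 2, where 2 WT PCN and 3 WT CONT arrays were compared, Krt19 was higher by 2.01 (adjusted p = 0.0299) and Krt7 by 1.70 (adjusted p = 0.0217). In batch 1, which holds WT CONT replicate 5, the values were -0.85 (adjusted p = 0.252) and -0.01 (adjusted p = 0.986). Without replicate 5 Krt19 gave 0.80 (adjusted p = 0.157). Without WT PCN replicate 3, 1 of the 2 WT PCN arrays of batch 2, Krt19 gave 0.06 (adjusted p = 0.943) and Krt7 0.49. The keratins of Pxr-/- mice gave 1.09 (Krt19, SE 0.42, adjusted p = 0.125) and 0.68 (Krt7, SE 0.29, adjusted p = 0.174).

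Among 10 tested genes of progenitor cells and the ductular reaction, 2 were higher after PCN in WT mice and 0 in Pxr-/- mice. They were Ncam1, an adhesion molecule of reactive duct cells (1.12, SE 0.24, adjusted p = 0.00184), and Cd44, a receptor of hyaluronan and osteopontin (0.80, SE 0.17, adjusted p = 0.00157). The list medians were 0.26 and 0.15, and over all genes 3.79% and 1.42% were called higher. Of 9 tested osteopontin receptors Cd44 was the 1 called, and the integrin genes gave no call.

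Of 16 tested genes of the Notch and TGFβ pathways that shape ducts, 2 were higher in WT PCN, where 3.79% of all genes were. Dll1, a Notch ligand, was higher by 0.81 (SE 0.11, adjusted p = 2.88e-05), and Tgfbr2, a TGFβ receptor gene, by 1.03 (SE 0.11, adjusted p = 8.69e-07). Dll1 was also the 1 gene of this list whose response differed between genotypes (0.87, SE 0.15, adjusted p = 0.00266) and the 1 lower in Pxr-/- PCN than in WT PCN (-1.11, SE 0.11). Over all genes 1.05% were called for the difference of responses and 1.36% lower between PCN genotypes. Of the 16, 0 were called in Pxr-/- mice, against 2.28% of all genes. The list medians were 0.15 in WT and 0.01 in Pxr-/- mice. Without WT PCN replicate 4, 2 genes of this list were called for the difference of responses.

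Among 14 tested genes of apical transport and adhesion, Adcy6, an adenylyl cyclase of the cAMP pathway upstream of CFTR, was lower after PCN in WT (-0.66, adjusted p = 0.00221) and in Pxr-/- mice (-0.66, adjusted p = 0.00693). Egfr, the epidermal growth factor receptor gene (0.85), and Ezr, which links apical membrane proteins to actin (0.83), were higher in Pxr-/- PCN. The anion exchanger gene Slc26a6 was lower in Pxr-/- PCN than in WT PCN (-0.81, adjusted p = 0.000458). The WT call of Adcy6 was lost without WT PCN replicate 4 or WT CONT replicate 3, and the call of Ezr without Pxr-/- PCN replicate 4 (adjusted p = 0.0531). Over all genes, 6.18% were called in WT mice, 2.28% in Pxr-/- mice and 2.09% between PCN genotypes, in either direction.

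Of 7 neutrophil genes, 4 were called higher with PCN in WT and 3 in Pxr-/- mice, where 3.79% and 1.42% of all genes were. S100a8 gave 2.21 and 2.19, and Retnlg 2.76 in each. In WT mice 6 differences were positive, with a list median of 0.83. In Pxr-/- mice 5 were, with a list median of 0.35. The Mpo call in WT mice did not hold in every leave-one-out fit (lowest difference 0.55, adjusted p up to 0.118). The summed signal of these 7 genes ran from 27076.2 to 36448.9 in WT CONT and from 29031.2 to 41935.5 in WT PCN. It ran from 29140.7 to 35144.3 in Pxr-/- CONT and from 34731.9 to 49320.4 in Pxr-/- PCN. On this linear scale the brightest of these genes, Csf3r, weighs most. Of 12 macrophage genes, which as a cell type can also hold osteopontin, Gpnmb (1.49, SE 0.43, adjusted p = 0.0145) and Ccr2 (0.65, SE 0.14) were higher in WT PCN, a count of 2 that was 1 without WT PCN replicate 4, where Ccr2 was under the fold threshold. Without WT PCN replicate 2, Gpnmb was 0.91 (adjusted p = 0.0565), and with only the compared groups fitted its adjusted p was 0.0516. Their summed signal ran from 37012.1 to 70237.4 in WT CONT and from 32686.2 to 102214.3 in WT PCN. Their part in the Spp1 and Sox9 values was not tested.

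The 2 genes with the array pattern nearest to that of Sox9 were Kif22, a kinesin gene of mitosis, and Fam81a. After centring, they lay at a root-mean-square distance of 0.29 and 0.31 log2 units from Sox9 over 23 arrays, where Sox9 itself had an SD of 0.58. Their group means followed the same order of high and low: Kif22 was 7.47 and 8.29 in WT mice without and with PCN, and 7.13 and 7.70 in Pxr-/- mice. Both genes were chosen by their distance over these same arrays, so this likeness follows from the choice and is no separate result.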

How the data were processed

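Liver RNA of 23 mice was measured on Agilent 1-colour arrays. Per the file headers, the authors deposited scanner output with the median intensity of each spot, linear and not normalized between arrays, and quality flags (Agilent Feature Extraction 10.10.1.1 per the submitters' notes). They also deposited log2 values, which their methods describe as filtered, batch-corrected and CrossNorm-normalized. Of the 13 marker probes, 9 were in that table. Groups, replicate numbers and washing batches came from the labels.

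Here, median signals were set to missing where flagged as outliers (2225 spots over all arrays; 0 on marker probes), taken to log2, averaged per probe, filtered (at least 1 group with over 50% of its arrays well above background) and quantile normalized. Each array had 29510 to 33321 of 56605 probes well above background, and array number and background limit the precision. Group and washing batch were fitted with limma 3.58.1 in R 4.3.3 over all 23 arrays, with Benjamini-Hochberg adjustment over 32087 probes. Calls needed an adjusted p no higher than 0.05 and a fold above 1.5, and each gene was read from its brightest tested probe. The script was tested on simulated data. Levels are on the normalized log2 scale, and differences are fitted log2 differences.

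Named were the 7 markers, called genes of each list (up to 4 with the largest change, with Krt19 and Krt7 always; another gene of that rule is not reported here), the 2 genes closest in pattern to each called marker, and Cyp3a11 and Nr1i2 as checks. The markers and lists were chosen with earlier results of these data known. Mice are the replicates. The lists covered other cholangiocyte genes, progenitor, Notch and TGFβ, osteopontin receptor and apical genes, and hepatocyte, macrophage, stellate, endothelial, lymphocyte, neutrophil, erythroid, mesothelial, gut and pancreas markers. Promoter windows are RefSeq sequences in GRCm38.p6, and probe positions are those of the files in mm9. Alternatives were other background corrections and scalings, the deposited values, other filters, no batch term, slide and replicate number as blocks, single batches, and leaving out each array.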

Additional observations from a re-analysis of the deposited data

Results flagged for a closer look

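A gap test for a single outlying array (Dixon's, at the 95% level) was applied to 40 sets of arrays, 10 probes in 4 groups, and marked 2. Chance marks about 1 in 20. Epcam in WT CONT replicate 5 was 7.47 against 5.15 to 5.75 in the other arrays of its group. Prom1 in Pxr-/- CONT replicate 3 was 5.56 against 5.18 to 5.29, and that spot was not well above background. The response of Dll1 to PCN differed between the genotypes by 0.87 (WT minus Pxr-/-, limma adjusted p = 0.00266), and was the 1 such case among the genes of all lists. Over all genes tested, 1.05% were called for this difference, so 1 case among the many list genes does not stand out as a count.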

How the results depend on the processing

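Of the 5 counts of called markers, that for the difference of responses stayed at 0 under every alternative. In WT mice the count of 1 became 2 with the deposited values and 0 within washing batch 2, and leaving out single arrays gave 1 to 2. The count of 0 in Pxr-/- mice became 1 with the replicate block and 1 with only the compared groups fitted, and 0 to 1 with single arrays left out. Between CONT genotypes 0 became 1 within batch 2. Between PCN genotypes 1 became 2 with the deposited values, 0 within batch 1 and 0 within batch 2, and 0 to 2 with single arrays left out. With processed signals it stayed at 1, but the gene was Cd24a (-0.62, adjusted p = 0.0424) and Sox9 was -0.82 (adjusted p = 0.0596).

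Some values changed sign. Most lay near 0, but those of Krt19 and Krt7 in WT mice did not, and the Sox9 difference of responses moved to -0.50. For PCN in WT mice, Epcam became 0.44 within batch 2, and Muc1 became -0.0093 with no batch term, -0.0132 with processed signals, -0.0296 with normexp, -0.0069 with no filter, -9e-04 with only the compared groups and -0.0017 within batch 1; Krt19 and Krt7 became -0.85 and -0.0138 within batch 1. For PCN in Pxr-/- mice, Epcam became 0.0071 with the deposited values and 0.0065 within batch 2, and Cd24a 0.0395 and 0.0871. For the difference of responses, Prom1 became -0.179 with processed signals, -0.0041 with normexp and -0.0142 with no filter, Epcam 0.125 with processed signals and 0.429 within batch 2, Spp1 -0.0086 within batch 1 and Sox9 -0.50 within batch 2. Between genotypes, Prom1 in CONT mice became -0.127 with processed signals, -0.0084 with normexp, -0.0107 with deposited values, -0.0013 with no filter and -0.0332 within batch 1, and in PCN mice 0.0517 with processed signals, 0.0129 with no filter and 0.0751 within batch 2. The causes were not tested.

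With single arrays left out, ranges that crossed 0 were -0.26 to 0.25 (Epcam) and -0.0799 to 0.0851 (Muc1) in WT mice, and -0.127 to 0.0436 (Epcam) and -0.096 to 0.0302 (Cd24a) in Pxr-/- mice. For the difference of responses they were -0.0546 to 0.43 (Spp1), -0.0108 to 0.24 (Sox9), -0.22 to 0.29 (Epcam) and -0.01 to 0.0856 (Prom1). For Prom1 between genotypes they were -0.0157 to 0.0673 in CONT and -0.0551 to 0.0409 in PCN mice.

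Whether replicate numbers pair the mice was not settled. Deviations of same-numbered arrays correlated at a median of 0.00 over 33 pairs, and at most 0.61. Those of other-numbered arrays had a median of -0.02 over 165 pairs, and at most 0.36. Of 23 arrays, 7 correlated best with their own number. With the replicate block the genes called numbered 1299, 502, 237, 81 and 467 (WT, Pxr-/-, difference of responses, CONT and PCN genotypes) against 1302, 481, 221, 65 and 441. In the deposited values the median of all probes shifted by 0.11 in WT mice and by -0.11 and -0.18 between CONT and PCN genotypes. These shifts were not taken off the differences given for the deposited values. Epcam, Prom1, Cftr and Muc1 were limited by signal over background. List counts without the arrays that stood apart were added after seeing the data.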

Other observations

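Lists of other cell types were read in the same comparisons. For scale, 6.18% of all genes were called in WT mice, 2.28% in Pxr-/- mice and 2.09% between PCN genotypes, in either direction. Fabp2, an enterocyte fatty acid binding gene that was well above background in all 23 arrays, was lower after PCN in WT (-1.55, SE 0.16) and in Pxr-/- mice (-0.81, SE 0.15), and higher in Pxr-/- PCN than in WT PCN (0.70, SE 0.16, adjusted p = 0.0109; 0.0512 with the deposited values). Lgals4 was lower in WT mice (-1.34, SE 0.27). They made 2 of the 4 tested genes of the gut and gallbladder list. Both were highest in WT CONT replicate 5. Without that array the differences in WT mice were -1.42 (Fabp2) and -1.11 (Lgals4). Both WT calls held in 23 of 23 leave-one-out fits. Wt1, a transcription factor gene of mesothelium and stellate cells, was the 1 of 6 mesothelial genes called, higher in WT PCN (1.05, SE 0.26) and Pxr-/- PCN (0.89, SE 0.25). The latter call held in 16 of 23 leave-one-out fits (adjusted p up to 0.0838). Of 12 hepatocyte genes Cebpa was lower in WT PCN (-0.72, SE 0.12) and Apoa1 higher in Pxr-/- PCN (0.62, SE 0.10), and Tat was higher in Pxr-/- PCN than in WT PCN (0.73, SE 0.22). The Tat call held in 11 of 23 leave-one-out fits (adjusted p up to 0.132) and was lost without WT CONT replicate 5 (0.0505), with processed signals (0.0711), with no filter (0.0734) and with the deposited values (0.43, 0.162). Cd4 was the 1 of 8 lymphocyte genes called, higher in Pxr-/- PCN than in WT PCN (0.77, SE 0.23). It held in 14 of 23 leave-one-out fits (adjusted p up to 0.111) and was lost with no filter (0.0684) and with the deposited values (0.53, 0.0728). In the lists of 10 endothelial, 7 tested erythroid and 5 tested pancreas genes, 0 were called in any comparison.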
